A study of Mus musculus with 3 samples.

Results

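The let-7 family of microRNAs (miRNAs) was examined in small RNA libraries from mouse hearts at 3 ages. According to the paper, the tissue sequenced at these ages was the cardiac ventricles, and the sample labels say heart. The members were 8 mature let-7 miRNAs from the 5′ arm of their precursors (let-7a, let-7b, let-7c, let-7d, let-7e, let-7f, let-7g and let-7i) and their relative miR-98, chosen by their accession numbers. They were 9 of the 1900 mature accessions in the count table and took up 12 of its 2049 rows. All hearts came from wild-type mice of the C57BL/6 strain, without any treatment, and were taken on postnatal day 1 (P1), 7 (P7) or 28 (P28). Each age was represented by 1 library, so no difference below has a replicate check and no test between ages was possible. How many hearts went into a library is not given in the sources used here. The deposited values were raw read counts, and levels are given as CPM (counts per 1000000 counts of the library). The P1, P7 and P28 libraries summed to 1944237, 2465680 and 2842526 counts, so that 3 reads correspond to 1.54, 1.22 and 1.06 CPM. Intervals in parentheses are 95% intervals that cover counting error only, by the Wilson method for levels and shares and by the Clopper-Pearson method for ratios. Ratios are written as later over earlier age, such as P7/P1.

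A miRNA guides a silencing complex to messenger RNAs, mostly through pairing of its seed, bases 2 to 8 counted from the 5′ end. The let-7 miRNAs are among the most conserved in animals and are known for accumulating as cells leave a proliferating, undifferentiated state. The RNA-binding protein LIN28 blocks the maturation of let-7 precursors in early cells, and growth-promoting genes such as Hmga2, Myc and Lin28 itself are well-known let-7 targets. The study sampled the weeks in which cardiomyocytes stop dividing, so these 3 libraries show the family over that window.

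The mature sequences of all 9 members are shown because they explain both why the family is treated as one and why its reads are hard to tell apart. They were taken from the RefSeq annotation of GRCm38.p6, where 9 of 9 names matched, and the seed is in capitals.
let-7a: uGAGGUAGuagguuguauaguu
let-7b: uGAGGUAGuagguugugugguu
let-7c: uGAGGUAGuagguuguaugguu
let-7d: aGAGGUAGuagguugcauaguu
let-7e: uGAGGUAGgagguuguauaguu
let-7f: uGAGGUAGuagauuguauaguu
let-7g: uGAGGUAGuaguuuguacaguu
let-7i: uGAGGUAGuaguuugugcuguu
miR-98: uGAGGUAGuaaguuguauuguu

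The seed GAGGUAG was the same in all 9, and each member was 22 bases long. Of 1679 mature miRNA names in the RefSeq table, 11 carried this seed, the 9 members and a further pair shown here for comparison, miR-1961 and let-7k. Another miRNA, let-7j, bears the family name with a different seed.
miR-1961: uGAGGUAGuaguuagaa
let-7k: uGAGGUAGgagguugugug
let-7j: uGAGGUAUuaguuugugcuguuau
The table does not pair accessions with names, so the counts of these 3 miRNAs were not analysed here.

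Outside the seed the members differed by few bases. With positions counted from 1 at the 5′ end and let-7a as the reference, let-7c differed by A19G, let-7e by U9G and let-7f by G12A. Let-7b differed by A17G and A19G, let-7d by U1A and U16C, let-7g by G12U and U18C, and miR-98 by G11A and A19U. Let-7i stood farthest from let-7a with 4 substitutions, G12U, A17G, U18C and A19U. Of the 36 pairs of members, 4 differed at 1 base and 10 at 2 bases. A read with a sequencing error or a trimmed end can therefore be placed with the wrong member, and the authors' rule for such reads is not given in the sources used here. Read numbers of different miRNAs also depend on how well each ligates to the adapters of a small RNA kit, so the order of members within a library is a property of the reads, whereas the same member can be followed across libraries.

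The 9 mature miRNAs come from 12 precursor hairpins on 7 chromosomes (GRCm38, the build named mm10 in the submitters' processing notes). A total of 3 loci hold several family hairpins. On chromosome 13, minus strand, Mirlet7a-1 (chr13:48538179-48538272), Mirlet7f-1 (chr13:48537829-48537917) and Mirlet7d (chr13:48536012-48536114) overlap exons of the long noncoding gene 6720427I07Rik. On chromosome 15, plus strand, Mirlet7c-2 (chr15:85706603-85706697) and Mirlet7b (chr15:85707319-85707403) are separated by 621 bases and overlap exons of the noncoding gene Lncppara. On chromosome X, plus strand, Mirlet7f-2 (chrX:151912346-151912428) and Mir98 (chrX:151913214-151913321) lie 785 bases apart in introns of Huwe1, which encodes a ubiquitin ligase.

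The other hairpins have no family member within 60000 bases. Mirlet7g (chr9:106178840-106178927, plus strand) is in an intron of Wdr82, whose protein belongs to complexes that methylate histones, and Mirlet7e (chr17:17830352-17830444, plus strand) is in an intron of Spaca6, 367 bases from Mir125a. Mirlet7c-1 (chr16:77599657-77599750, plus strand) is in an intron of the noncoding gene Mir99ahg, 656 bases from Mir99a. Mirlet7a-2 (chr9:41536716-41536811, plus strand) lies 5211 bases from Mir100 in introns of the noncoding genes 3110039I08Rik and Gm49317. Mirlet7i (chr10:122985640-122985724, minus strand) overlaps an exon of the transcribed pseudogene D630033A02Rik. Host genes and their parts are from GENCODE vM21.

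The family as a whole took a smaller share of the library at each later age. The 9 members together held 6.72% of the counts at P1 (130689 reads, 6.69 to 6.76), 4.80% by P7 (118453 reads, 4.78 to 4.83) and 4.02% by P28 (114394 reads, 4.002 to 4.047). Its log2 ratios were -0.48 (-0.50 to -0.47) for P7/P1, -0.26 (-0.27 to -0.24) for P28/P7 and -0.74 (-0.75 to -0.73) for P28/P1. The P28/P1 value equals a level 0.599 times that at P1.

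These ratios were read against the 279 mature accessions whose CPM averaged 10 or more over the libraries, all 9 members among them. For P7/P1 the median accession had a log2 ratio of 0.03 with quartiles at -0.51 and 0.59, so the family, at -0.48, was below the median but inside the middle range of the table. The median for P28/P1 was -0.74, the same as the family to 2 decimals. For P28/P7 the median was -0.79 and the family, at -0.26, was above it. The direction for P28/P7 depends on the scaling. TMM scaling, which is built to place the typical accession near no change, moved each log2 ratio by 0.64 for P28/P7 and by 0.65 for P28/P1. Under TMM the family was at -0.48 for P7/P1, at 0.39 for P28/P7 and at -0.09 for P28/P1. The lower family level at P7 than at P1 held under every scaling tried, while P28/P7 changed sign under 3 of the 4 other scalings.

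The members spanned a wide range of abundance. Let-7f, let-7g and let-7i held 78.1% of the family reads at P1 (77.9 to 78.3), 73.6% by P7 (73.3 to 73.8) and 72.4% by P28 (72.1 to 72.7). They ranked between 8 and 14 among all mature accessions in each library, whereas miR-98 ranked between 102 and 129. The plot of levels by age shows this order, with let-7f, let-7g and let-7i close together at the top.

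**Figure D1:**
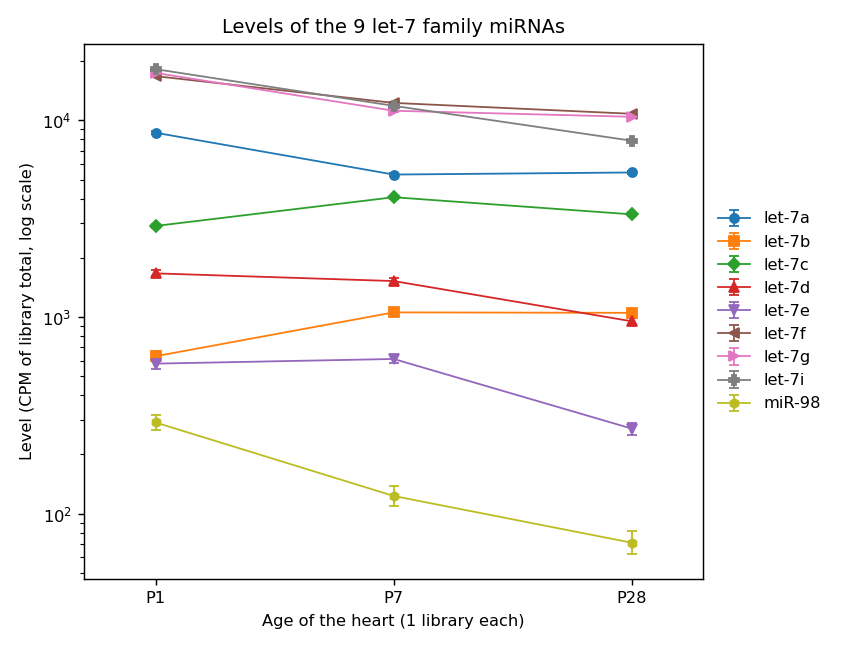
Level of each member (CPM of the library total, log scale) in the P1, P7 and P28 libraries, 1 library per age, with lines only to guide the eye and bars for the 95% Wilson interval. By library totals, let-7b and let-7c are the members clearly above their P1 level at P7 and P28, and miR-98, at 291, 123 and 71.1 CPM, is the lowest at each age.

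Let-7i (MIMAT0000122) was the most abundant member at P1 and had the largest decrease of the abundant ones. It was at 18233 CPM at P1 (18046 to 18422), 11869 by P7 (11735 to 12005) and 7887 by P28 (7785 to 7991). The level was lower at each step, with log2 ratios of -0.62 (-0.64 to -0.60) for P7/P1 and -0.59 (-0.61 to -0.56) for P28/P7, but the second turned to 0.06 under TMM and 0.14 under DESeq2 size factors. For P28/P1 the ratio was -1.21 (-1.23 to -1.18), or 2.31-fold lower, and under TMM it was -0.56.

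Let-7g and let-7f, which with let-7i make up most of the family sum, kept closer to it. Let-7g (MIMAT0000121) was at 17448 CPM at P1 (17265 to 17633), 11203 by P7 (11073 to 11336) and 10437 by P28 (10319 to 10555). Let-7f (MIMAT0000525) was at 16806 CPM at P1 (16626 to 16987), 12281 by P7 (12144 to 12419) and 10812 by P28 (10692 to 10932). The log2 ratios for P7/P1 were -0.64 for let-7g and -0.45 for let-7f. For P28/P7 they were -0.10 and -0.18 by library totals, but 0.54 and 0.46 under TMM, so the direction after P7 depends on the scaling. For P28/P1 let-7g was at -0.74 and let-7f at -0.64, and under TMM these became -0.09 and 0.01.

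Let-7a (MIMAT0000521), the member identical from worms to mammals, was at 8658 CPM at P1 (8529 to 8790), 5305 by P7 (5215 to 5397) and 5437 by P28 (5352 to 5523). Its decrease fell between P1 and P7, where the log2 ratio was -0.71 (-0.74 to -0.67). Between P7 and P28 the ratio was 0.035 (0.0016 to 0.069), under TMM it was 0.68, and with the table row that had more reads over the 3 libraries in place of the sum of its 2 rows it was -0.49.

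Let-7b and let-7c went the other way. Let-7b (MIMAT0000522) was at 632 CPM at P1 (597 to 668), 1056 by P7 (1016 to 1097) and 1050 by P28 (1013 to 1088). Let-7c (MIMAT0000523) was at 2906 CPM at P1 (2831 to 2982), 4068 by P7 (3989 to 4148) and 3329 by P28 (3263 to 3397). Both were higher at P7 than at P1, with log2 ratios of 0.74 (0.64 to 0.84) for let-7b and 0.49 (0.44 to 0.53) for let-7c. For P28/P1 let-7b was at 0.73 (0.64 to 0.83) and let-7c at 0.20 (0.15 to 0.24), and TMM raised these to 1.38 and 0.85. For P28/P7 let-7b was at -0.008 (-0.084 to 0.068) and let-7c at -0.29 (-0.33 to -0.25) by library totals. Under TMM they were at 0.64 and 0.36, so their direction after P7 depends on the scaling. In both comparisons with P1 each kept its direction under the 4 other scalings, with a range of 0.69 to 0.87 for let-7b and 0.43 to 0.62 for let-7c for P7/P1. These are the 2 members with the substitution A19G, they differ from each other by 1 base, and one let-7c hairpin lies beside the let-7b hairpin on chromosome 15. The other let-7c hairpin is on chromosome 16, and the reads cannot be assigned to one of them.

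By library totals, let-7d and let-7e were lower mainly after P7. Let-7d (MIMAT0000383) was at 1667 CPM at P1 (1611 to 1725), 1524 by P7 (1476 to 1573) and 951 by P28 (916 to 988). The log2 ratio of let-7d was -0.13 (-0.20 to -0.06) for P7/P1 and -0.68 (-0.75 to -0.61) for P28/P7. Let-7e (MIMAT0000524) was at 579 CPM at P1 (546 to 614), 612 by P7 (582 to 643) and 271 by P28 (252 to 290). The P1 and P7 levels of let-7e could not be told apart even by counting error, at a log2 ratio of 0.08 (-0.03 to 0.19), and the P28 level was 2.26-fold lower than that at P7, a log2 ratio of -1.18 (-1.30 to -1.05). With TMM the P28/P7 ratios were -0.03 for let-7d and -0.53 for let-7e, and with DESeq2 size factors let-7d was at 0.05.

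MiR-98 (MIMAT0000545) was the rarest member and, by library totals, the one with the largest difference between libraries. Its level was 291 CPM at P1 (565 reads, 268 to 316), 123 by P7 (303 reads, 110 to 138) and 71.1 by P28 (202 reads, 61.9 to 81.6). The level was lower at each step, and the intervals of the 3 libraries did not overlap. The log2 ratio was -1.24 (-1.45 to -1.04) for P7/P1, -0.79 (-1.05 to -0.53) for P28/P7 and -2.03 (-2.27 to -1.80) for P28/P1, a 4.08-fold difference. Under TMM the last ratio was -1.38, the same size as the 1.38 of let-7b, and that of P28/P7 was -0.14. Under DESeq2 size factors miR-98 was at -1.34 for P28/P1, a smaller difference than the 1.42 of let-7b. Its neighbour on chromosome X, Mirlet7f-2, gives let-7f, whose ratio for P28/P1 was -0.64, but let-7f also has a hairpin on chromosome 13.

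Few members were past a 2-fold difference in CPM. For P7/P1, 1 of 9 members (miR-98) was at least 2-fold lower and 0 of 9 were higher, where 11.5% of the 279 accessions were at least 2-fold lower and 11.1% higher. For P28/P7, 1 of 9 (let-7e) was lower and 0 were higher, against 42.7% and 2.87% of all accessions. For P28/P1, 3 of 9 (let-7e, let-7i and miR-98) were lower and 0 were higher, against 42.7% and 13.6%. The share of members past 2-fold was thus below or near that of all accessions in each comparison. TMM changed the calls for P28/P1 to 1 lower (miR-98, with 28.7% of all accessions lower) and 1 higher (let-7b, with 25.1% higher), and left 0 lower for P28/P7, where 21.9% of all were lower.

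At a fold of 1.5, 4 of 9 members were lower and 1 higher for P7/P1, where 23.3% of all accessions were lower and 25.1% higher. For P28/P7, 4 were lower and 0 higher, against 55.6% and 7.89%, and for P28/P1, 7 were lower and 1 higher, against 52.7% and 19.0%. At a fold of 4, 1 member (miR-98) was past it, lower for P28/P1, where 22.9% of all accessions were lower and 3.23% higher. In the other comparisons 0 members were past it, against 0.717% lower and 0.717% higher for P7/P1 and 15.8% lower and 1.43% higher for P28/P7.

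By their direction alone, 6 of 9 members were lower at P7 than at P1, beside 47.7% of all accessions. For P28/P7, 8 of 9 were lower beside 75.3% of all, and under TMM 3 of 9 beside 54.1%. The 8 include let-7b, whose ratio of -0.008 (-0.084 to 0.068) could not be told from no change even by counting error. For P28/P1, 7 of 9 were lower beside 67.7% of all, and under TMM 6 of 9 beside 52.0%. Their median log2 ratio was -0.45 for P7/P1, beside 0.03 for all accessions. It was -0.29 for P28/P7, beside -0.79, and -0.74 for P28/P1, beside -0.74. Only 1 of 9 members, let-7e, was below the median accession for P28/P7, and miR-98 was itself that median. Comparisons that share a library are not independent of each other. The plot of ratios sets each member beside the interquartile range of all accessions.

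**Figure D2:**
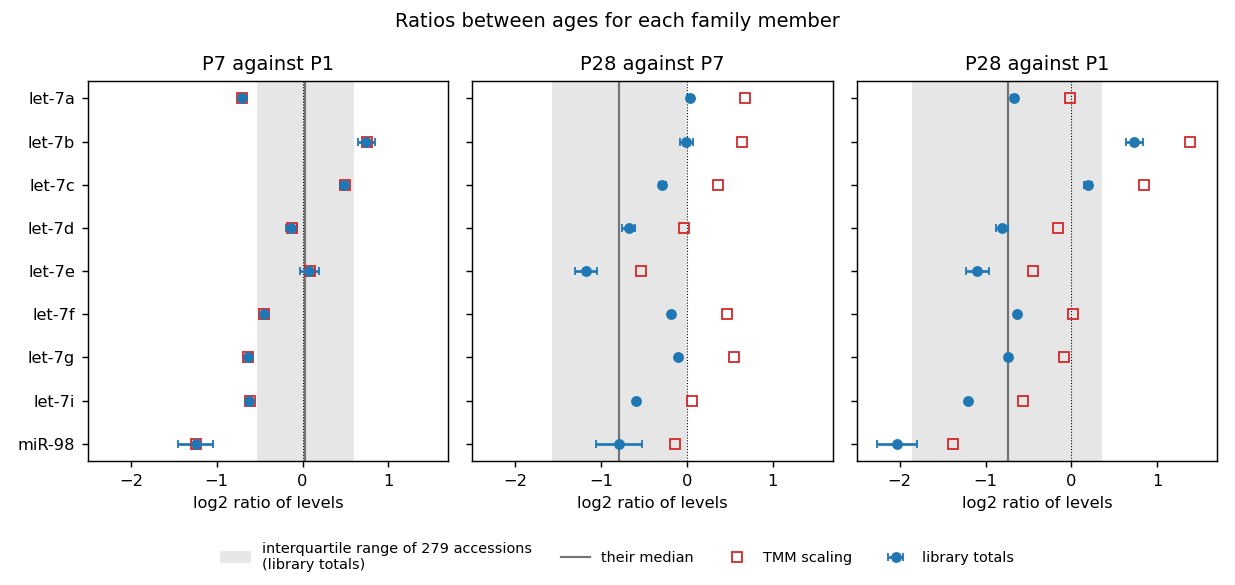
Log2 ratio of each member in the 3 comparisons by library totals (filled circles, with 95% Clopper-Pearson intervals for counting error) and under TMM scaling (open squares), with the median (line) and interquartile range (band) of 279 accessions by library totals. The circles and squares coincide for P7/P1 and are 0.64 to 0.65 apart in both comparisons with P28. MiR-98 is the lowest member for P7/P1 and for P28/P1, and let-7b the highest.

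The composition of the family does not depend on how libraries are scaled, since every share is taken within one library, but it does depend on how the 2 table rows of let-7a, let-7c and let-7f are joined, here by their sum. The combined share of let-7b and let-7c in the family reads was 5.26% at P1 (5.14 to 5.38), 10.7% by P7 (10.5 to 10.8) and 10.9% by P28 (10.7 to 11.1). The interval at P1 stood clear of both later ones. Let-7b by itself went from 0.94% at P1 (0.89 to 0.99) to 2.20% by P7 (2.12 to 2.28) and 2.61% by P28 (2.52 to 2.70). Let-7c went from 4.32% at P1 (4.21 to 4.43) to 8.47% by P7 (8.31 to 8.63) and 8.27% by P28 (8.11 to 8.43).

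Other members lost or kept their part of the family. Let-7i made up 27.1% of the family reads at P1 (26.9 to 27.4), 24.7% by P7 (24.46 to 24.95) and 19.6% by P28 (19.4 to 19.8). Let-7f was at 25.0% (24.8 to 25.2), 25.6% (25.3 to 25.8) and 26.9% (26.6 to 27.1) at P1, P7 and P28. Let-7g was at 26.0% (25.7 to 26.2), 23.3% (23.1 to 23.6) and 25.9% (25.7 to 26.2), with P7 the lowest. Let-7a made up 12.9% (12.7 to 13.1), 11.0% (10.9 to 11.2) and 13.5% (13.3 to 13.7), again with P7 the lowest. With the row that had more reads over the 3 libraries in place of the sum, let-7a was at 8.22%, 8.43% and 7.59%, so that P7 was the highest and P28 the lowest.

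The minor members showed 2 patterns. Let-7d and let-7e had their largest share at P7, let-7d with 2.48% (2.40 to 2.57), 3.17% (3.07 to 3.27) and 2.36% (2.28 to 2.45) at P1, P7 and P28, and let-7e with 0.86% (0.81 to 0.91), 1.27% (1.21 to 1.34) and 0.67% (0.63 to 0.72). MiR-98 had a smaller share at each later age, 0.43% (0.40 to 0.47), 0.26% (0.23 to 0.29) and 0.18% (0.15 to 0.20).

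**Figure D3:**
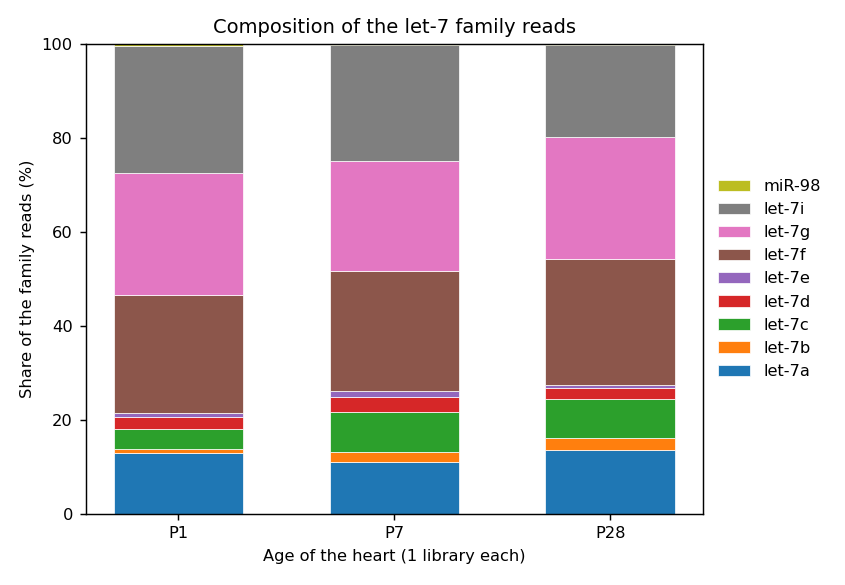
Share of each member in the reads of the family (percent, stacked to 100) in the P1, P7 and P28 libraries. Let-7f, let-7g and let-7i form most of each bar, the part of let-7b and let-7c is wider at P7 and P28 (10.7% and 10.9%) than at P1 (5.26%), and the part of let-7i is narrowest at P28 (19.6%).

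Ratios between pairs of members in one library give the same picture without any scaling. Those with let-7a, let-7c or let-7f depend on how the 2 table rows are joined, here by their sum. There were 28.9 let-7i reads for each let-7b read at P1, 11.2 by P7 and 7.51 by P28. For let-7c the same number was 6.28 at P1, 2.92 by P7 and 2.37 by P28. Let-7a, which differs from let-7c by 1 base, had 2.98 reads for each let-7c read at P1, 1.30 by P7 and 1.63 by P28. With the fuller row of each over the 3 libraries, the log2 ratio for P28/P7 was -0.49 for let-7a and -0.30 for let-7c. On that basis there were fewer let-7a reads per let-7c read at P28 than at P7, not more. The widest change was between let-7b and miR-98, from 2.17 let-7b reads per miR-98 read at P1 to 8.59 by P7 and 14.8 by P28. Let-7f and let-7g kept close to the same ratio throughout, at 0.963, 1.10 and 1.04 let-7f reads per let-7g read.

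The order of the members changed with age among the top 3 and between let-7b and let-7d. At P1 it ran let-7i, let-7g, let-7f, let-7a, let-7c, let-7d, let-7b, let-7e and miR-98. At P7 and P28 let-7f was first by the sum of its rows, though not by its fuller row, which held a smaller share than let-7i at P7 and than let-7g at P28. At P28 let-7b passed let-7d, with 1.10 let-7b reads per let-7d read (1.05 to 1.16) against 0.379 at P1. Within the top 3 at P1 and at P7, neighbours differed by 1.03 to 1.06 times, and let-7f and let-7g at P28 by 1.04 times. These gaps exceed counting error, but without replicates it cannot be said whether they exceed the spread between hearts.

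A total of 3 members had 2 rows in the table, and these rows did not always move together. A suffix on the accession tells the rows apart, and mature sequences of the copies listed in RefSeq for one member are identical, so a read of the mature miRNA does not itself say to which row it belongs. The rows of let-7a and of let-7f held unequal counts, so their reads were not all counted in both rows. Whether a part of them, or the reads of let-7c, were counted in both was not tested. The first row of let-7c had 49.9% (48.6 to 51.2), 49.4% (48.4 to 50.3) and 49.8% (48.8 to 50.8) of its reads at P1, P7 and P28, an even split. For let-7a the first row had 43.2% (42.4 to 43.9), 31.1% (30.3 to 31.9) and 52.1% (51.3 to 52.9) at P1, P7 and P28. For let-7f it had 12.9% (12.6 to 13.3), 8.48% (8.17 to 8.80) and 13.2% (12.8 to 13.5), again lowest at P7.

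Taken row by row, let-7a and let-7f would have been called otherwise. The first row of let-7a had a log2 ratio of -1.18 (-1.24 to -1.12) for P7/P1, past the 2-fold threshold, where the second row was at -0.43 (-0.47 to -0.39) and the sum at -0.71. For P28/P7 these 2 rows had opposite signs, 0.78 (0.72 to 0.83) and -0.49 (-0.53 to -0.44). The first row of let-7f was at -1.06 (-1.13 to -0.99) for P7/P1 and the second at -0.38 (-0.40 to -0.36). The summed counts used above do not depend on how reads are divided between the rows if each read was counted once, and they would be too high if reads were counted in both.

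**Figure D4:**
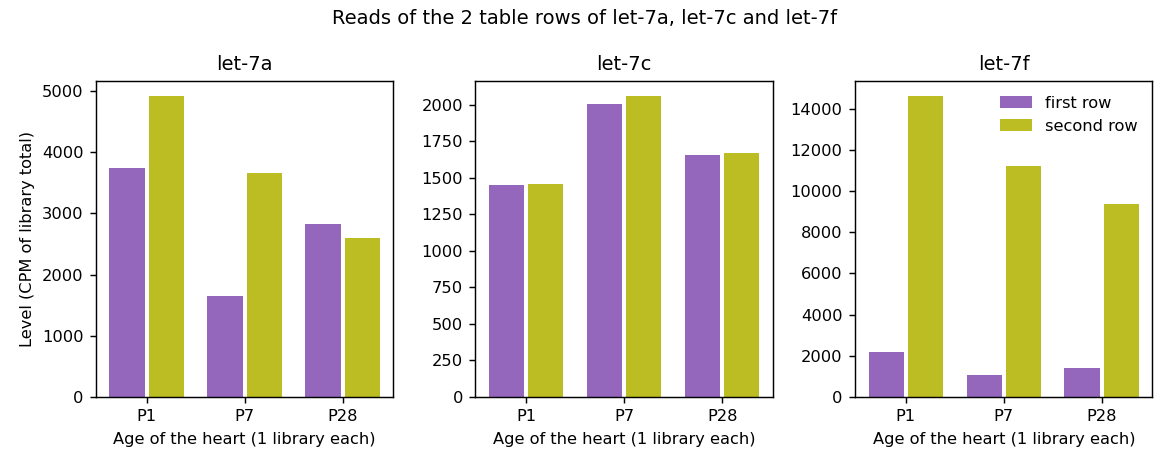
Level (CPM of the library total) of the first and second table row of let-7a, let-7c and let-7f in the P1, P7 and P28 libraries, 1 library per age. The rows of let-7c are nearly equal at each age, and the first rows of let-7a and let-7f are lowest at P7, at 1651 and 1041 CPM.

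The table also held rows for the stem-loop precursors, and most of these nearly repeated the counts of a let-7 row. Of its 14 stem-loop rows, 11 held, in every library, at least as many reads as 1 member row and at most 15% more, and between them they were paired with every member row except that of miR-98. Together they took 6.72% of the counts at P1, 4.82% by P7 and 4.04% by P28, about the share of the family itself. They were left out of the family counts, but they are part of the library totals behind the CPM. With totals over mature rows alone and duplicate accessions left out, the family held 8.02% at P1, 5.53% by P7 and 4.82% by P28, in the same order.

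Few reads of a stem-loop row were not also counted in its member row. Over the 11 rows they amounted to 572 reads at P1, 595 by P7 and 649 by P28, which is 0.438%, 0.501% and 0.565% of the stem-loop reads. Let-7d had the largest part, with 277 reads beyond the 5′ row at P1, 242 by P7 and 283 by P28, or 7.87%, 6.05% and 9.47% of its stem-loop row. For the first row of let-7a they numbered 161, 199 and 185. For let-7g there were 2, 0 and 0.

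The accessions whose course was most like that of the summed family are given without names. Among 125 other accessions averaging 100 CPM or more, likeness was measured over the 3 libraries as the distance between the pairs of log2 ratios for P7/P1 and P28/P7. The nearest was MIMAT0000616 at a distance of 0.24, with 967 CPM at P1, 817 by P7 and 680 by P28. The next was MIMAT0000384 at 0.29, with 142, 97.7 and 99.6 CPM, and its 277, 241 and 283 reads were within 3 reads of those that the let-7d stem-loop row held beyond let-7d in each library. Of the members themselves, let-7f lay nearest to the family sum, at 0.08, and let-7b farthest, at 1.25. Each member is part of that sum and the abundant ones weigh most in it, so these distances depend in part on abundance.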

How the data were processed

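Total RNA from hearts was made into small RNA libraries with a NEBNext kit. The authors deposited a single table of unnormalized read counts. The submitters' processing notes name bcl2fastq, TopHat and mm10, and the paper states TopHat2 and counting with Bioconductor packages for its RNA-seq in general. The miRBase release and the handling of reads with several placements are not given in the sources used here. Columns were matched to ages by the age code in their names, and 0 columns were left unused.

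Rows were summed per mature accession, and CPM were taken from column totals. Log2 ratios used a pseudocount of 0.5 reads. Accessions averaging 10 CPM or more formed the background, and a 2-fold difference counted as a call. With 1 library per age the edgeR quasi-likelihood test could not be fitted, so no p-value is given. The ratio and interval calculations were tested on simulated data.

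Alternatives were TMM (edgeR 4.0.16), DESeq2 1.42.0 size factors, the total without the 10 most abundant accessions, the total over mature rows without accessions that repeat another within 1%, the row with most reads, a pseudocount of 5, folds of 1.5 and 4, and filters at 1 CPM, 100 CPM or none. Reads from one molecule are not told apart, as no molecular identifiers are stated.

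The members and lists were chosen with earlier results of these data known. The genes to be named were the 9 members, other miRNAs with the let-7 seed, the 3′ strands, cluster partners and the 5 accessions nearest to the family sum. As neither the table nor the reference tables pair accessions with names, values of the other named miRNAs and of cell type marker miRNAs were not analysed here, the tissue label was not checked against markers, and only the 2 nearest accessions are printed. Software versions were Python 3.11.15 with scipy 1.17.1, numpy 2.4.6, pandas 2.3.3 and matplotlib 3.10.9, and R 4.3.3.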

Additional observations from a re-analysis of the deposited data

How the results depend on the processing

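No paired analysis was possible because an age is a single library, and none could be left out. The family log2 ratio for P7/P1 stayed negative under every alternative. It was -0.52 with DESeq2 size factors, -0.35 without the 10 most abundant accessions and -0.47 with the fullest row of each accession. With mature rows only, here and below also without duplicate accessions, it was -0.54. For P28/P7 it was 0.39 under TMM, 0.47 under DESeq2 and 0.093 without the 10 accessions, but -0.20 with mature rows only and -0.34 with the fullest row. For P28/P1 it was -0.091, -0.051, -0.26 and -0.80 under TMM, DESeq2, the total without the 10 accessions and the fullest row. Let-7f is itself among the 10 accessions, so the total without them leaves out its reads while the family keeps them. The scalings of the library each move all ratios of a comparison by one amount, whereas the fullest row moves, among the members, the ratios of let-7a, let-7c and let-7f, and with them that of the family. The median of all accessions was -0.14 under TMM and -0.06 under DESeq2 for P28/P7, and -0.09 and -0.05 for P28/P1.

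Members at least 2-fold lower for P28/P7 numbered 0 under TMM, 0 under DESeq2 and 0 without the 10 accessions. For P28/P1, each of these 3 scalings gave 1 lower and 1 higher. Of all accessions, 21.9% were at least 2-fold lower for P28/P7 under TMM and 20.4% under DESeq2. For P28/P1, 28.7% were lower under TMM and 28.7% under DESeq2, and 25.1% and 25.8% were higher. The share of all accessions was not computed for the total without the 10 accessions. A fold of 1.5 gave 4 lower and 1 higher for P7/P1, 4 lower for P28/P7, and 7 lower and 1 higher for P28/P1, whereas a fold of 4 left 0, 0 and 1 lower, and the shares of all accessions past these folds stand beside the members' counts in the results. Among the 27 ratios of single members, 6 changed sign under TMM, 8 under DESeq2, 5 without the 10 accessions, 1 with mature rows only and 1 with the fullest row, and 0 with a pseudocount of 5.

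The background counts, as higher and lower, were 31 and 32 for P7/P1, 8 and 119 for P28/P7, and 38 and 119 for P28/P1. With a filter at 1 CPM they were 67 and 71, 39 and 204, and 76 and 211. At 100 CPM they were 17 and 14, 2 and 44, and 19 and 46, and with no filter 208 and 188, 111 and 358, and 172 and 357. TMM gave 32 and 61 for P28/P7 and 70 higher for P28/P1, and DESeq2 gave 39 and 57, and 72 higher. Of the accessions called in either direction for P28/P7, the higher ones made up 6.30% by library totals and 34.4% under TMM. For P28/P1 they made up 24.2% of the calls by library totals and 46.7% under TMM.

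With mature rows only and duplicate accessions left out, the family held 8.02%, 5.53% and 4.82% of the counts. With the fullest row only, the shares of let-7a in the family at P1, P7 and P28 were 8.22%, 8.43% and 7.59%, highest rather than lowest at P7, and those of let-7b 1.06%, 2.44% and 3.06%. For let-7c they were 2.43%, 4.75% and 4.87%, for let-7d 2.78%, 3.52% and 2.77%, and for let-7e 0.97%, 1.41% and 0.79%. For let-7f they were 24.4%, 25.9% and 27.3%, for let-7g 29.1%, 25.8% and 30.4%, and for let-7i 30.5%, 27.4% and 23.0%. For miR-98 they were 0.49% at P1 and 0.21% by P28.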
